A study of Mus musculus with 12 samples.

Results

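The genes described here encode the secreted ligands of Wnt signalling, their receptors and co-receptors, the secreted proteins that bind or modulate them, and the feedback and target genes Axin2 and Lef1. They were chosen by name: every listed gene whose symbol was Wnt, Fzd, Sfrp, Dkk or Rspo followed by a number, and Lrp5, Lrp6, Frzb, Wif1, Axin2, Lef1 and Notum where listed. This gave 34 genes of the 27825 listed: 10 Wnt ligands, 10 Frizzled receptors, 2 co-receptors, 6 secreted Wnt binders, 2 Dickkopf genes, 2 R-spondins and 2 feedback or target genes. Notum and family members outside those rows were not analysed here.

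RNA was sequenced from cells sorted out of 2 mouse tissues, the mesentery and the epididymal fat pad, on 2 diets, with 3 libraries (A, B and C) in each of the 4 groups. All mice were male and carried ROSA26-eYFP+/+ and Cdh5-CreERT2+, so that tamoxifen switches on the yellow fluorescent protein YFP in cells that use the promoter of Cdh5, the gene of the endothelial junction protein VE-cadherin. All groups, chow groups included, were given tamoxifen in the food when 6 weeks old, over 2 weeks. The assigned food, normal chow (5.8% fat) or high fat diet (60%), started at 8 weeks of age and lasted 12 to 13 weeks. Each library came from the combined tissue of 6 mice, digested in the presence of the transcription blocker actinomycin D, and from the YFP-positive cells sorted from it. The labels speak of 2 independent replicates while the titles give 3 letters, so the p-values measure the spread between these libraries, which may be partly technical. The study's title concerns the loss of differences between endothelial cells of arteries after an obesogenic diet, and the contrasts below ask how the 2 tissues differ on each diet, how the diets differ in each tissue, and whether the diet difference depends on the tissue.

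Wnt ligands are lipid-modified secreted proteins that bind a Frizzled receptor and, for the beta-catenin branch, the co-receptor Lrp5 or Lrp6 on the receiving cell. Receptor binding stabilises beta-catenin, which enters the nucleus and works with Tcf and Lef proteins on target genes such as Axin2, itself a brake on the pathway. Sfrp proteins, Frzb and Wif1 bind ligands outside the cell, Dickkopf proteins such as Dkk2 act on the co-receptors, and R-spondins raise the amount of receptor at the surface. In blood vessels, Fzd4 with its ligand norrin is known for its role in retinal and brain endothelium.

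The promoters of 5 genes are printed, as examples of the genes that differed between the tissues: each passed the test below in at least 1 tissue contrast, and the set was chosen after the values were seen. The RefSeq promoter table held 22 of the 34 genes, with 28 start sites, and Wnt2 and Rspo1, which also passed and are in it, are not printed. Each sequence is the 250 bases before the start, 5′ to 3′ on the gene's strand, from RefSeq on GRCm38.p6, whereas the deposited values were labelled with mm39. Capitals mark matches on either strand to the letters CTTTGAT (known as the Tcf/Lef motif), TATAAA (known as the TATA box) or GGGCGG (known as the GC box), with overlapping matches run together. Sfrp2 lies at chr3:83766071-83766320 on the plus strand, Sfrp5 at chr19:42202253-42202502 on the minus strand, Fzd4 at chr7:89404116-89404365 on the plus strand, 1 of the starts of Wnt5b at chr6:119449387-119449636 on the minus strand, and Dkk2 at chr3:132085042-132085291 on the plus strand.
Sfrp2: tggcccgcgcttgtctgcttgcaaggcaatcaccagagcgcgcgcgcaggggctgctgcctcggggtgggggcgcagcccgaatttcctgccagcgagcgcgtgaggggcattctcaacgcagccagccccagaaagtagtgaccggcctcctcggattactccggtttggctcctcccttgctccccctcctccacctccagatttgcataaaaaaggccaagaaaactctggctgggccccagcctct
Sfrp5: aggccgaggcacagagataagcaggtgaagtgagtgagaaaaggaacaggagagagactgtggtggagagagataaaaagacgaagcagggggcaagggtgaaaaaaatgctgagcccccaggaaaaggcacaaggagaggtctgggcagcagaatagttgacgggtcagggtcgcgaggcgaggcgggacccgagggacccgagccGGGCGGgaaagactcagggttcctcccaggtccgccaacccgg
Fzd4: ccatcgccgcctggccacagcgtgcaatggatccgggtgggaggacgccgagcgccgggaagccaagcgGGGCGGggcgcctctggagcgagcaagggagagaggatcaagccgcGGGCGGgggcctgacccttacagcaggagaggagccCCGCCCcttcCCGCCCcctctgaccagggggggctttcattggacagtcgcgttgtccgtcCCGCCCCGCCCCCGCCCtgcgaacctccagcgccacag
Wnt5b: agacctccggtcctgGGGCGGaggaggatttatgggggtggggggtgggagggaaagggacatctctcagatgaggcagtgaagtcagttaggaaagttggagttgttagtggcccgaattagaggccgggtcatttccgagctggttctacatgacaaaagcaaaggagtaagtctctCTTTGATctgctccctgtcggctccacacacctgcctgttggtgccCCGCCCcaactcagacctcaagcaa
Dkk2: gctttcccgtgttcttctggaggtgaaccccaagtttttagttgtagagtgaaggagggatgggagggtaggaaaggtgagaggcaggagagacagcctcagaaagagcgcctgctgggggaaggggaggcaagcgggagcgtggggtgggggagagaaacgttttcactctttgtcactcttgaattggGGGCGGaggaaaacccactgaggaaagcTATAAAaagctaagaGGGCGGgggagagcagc
The Sfrp2 window held none of the 3 motifs and the Fzd4 window held 7 GC boxes. The Dkk2 window held a TATA box starting 32 bases before the start, and this Wnt5b window held a Tcf/Lef match starting 71 bases before it, unlike the windows of the other two Wnt5b starts in the table. Over the whole table of 32851 promoters of the same length, 3.21% held the Tcf/Lef letters, 12.4% the TATA letters and 32.7% the GC box letters. Among the 28 promoters of the genes described here, 2 held the Tcf/Lef letters (Wnt11 and Wnt5b), 5 held the TATA letters and 21, from 18 genes, held the GC box letters. A match is a run of letters and was not tested as a binding site.

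The libraries held between 8348897 and 25397963 reads in listed genes, and libraries of 1 group correlated across genes at 0.743 to 0.966. Endothelial markers were present in every library, with the 10 genes of that list (Cdh5, Pecam1, Kdr and others) summing to 107151 to 165734 normalized counts in mesentery and 32966 to 79481 in epididymal fat. Markers of other cells were present too. Macrophage and leukocyte markers summed to 128565 to 323808 in epididymal fat under high fat feeding and to 1373 to 81233 in the other 3 groups. Pancreatic acinar markers summed to 24848 to 172793 in mesentery and to at most 112 in epididymal fat, where 1 of the 8 was at 0 in all high fat libraries. Fibroblast markers, all 10 of them detected in each group, summed to 5057 to 10886 in mesentery and to 19813 to 68949 in epididymal fat. T and B cell and epithelial markers summed to at most 7491 and 1145. In bulk RNA, fewer cells of a type and less RNA per cell cannot be told apart. The description numbers of the libraries were 50, 51 and 87 for chow A, B and C and 88, 52 and 53 for high fat A, B and C, in both tissues. The labels do not say what the numbers stand for.

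**Figure D1:**
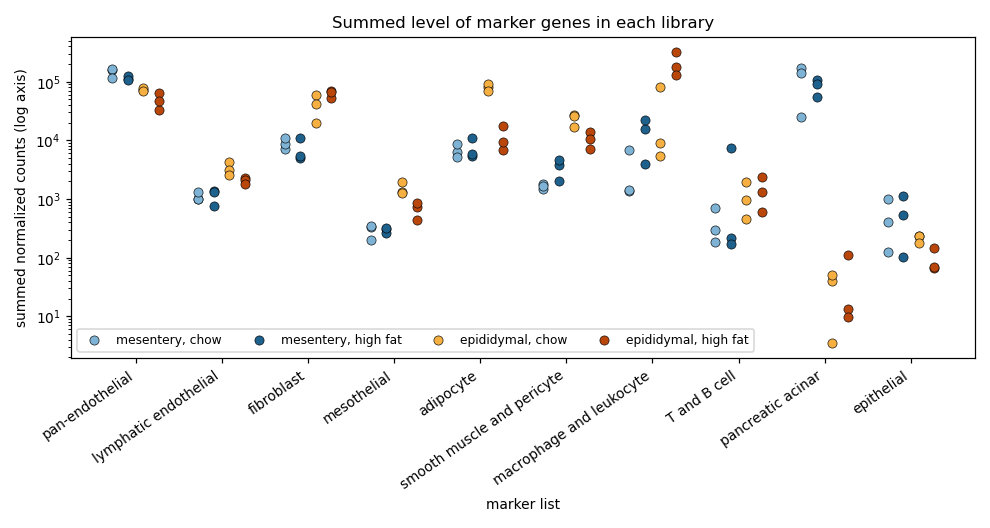
Summed normalized counts of each marker list (log axis), with 1 point per library and colours for the 4 groups. Endothelial sums were highest in mesentery, acinar sums were at least 24848 in mesentery and at most 112 in epididymal fat, and macrophage sums were highest in epididymal fat under high fat feeding.

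Of the 34 genes, 30 had a mean of at least 10 normalized counts and were tested. Wnt3, Fzd9, Fzd10 and Wif1 did not reach it, with means of 3.81 to 6.31. Reads were divided by library size factors, so that 3 reads corresponded to 2.12 to 4.22 normalized counts, which is used below as the lower limit of a value. Per kilobase of exon, the highest means over a group were those of Sfrp5 (602 and 620 in mesentery on chow and high fat diet) and Fzd4 (342 and 241). The summed level per kilobase of the 10 ligands was 62.5 (range 35.8 to 105) in mesentery on chow, 63.2 (42.7 to 80.5) in mesentery on high fat diet, 303 (113 to 548) in epididymal fat on chow and 97.3 (69.5 to 132) in epididymal fat on high fat diet. The 10 Frizzled genes summed, in the same order, to 501 (459 to 549), 400.4 (371 to 435), 405 (317 to 475) and 258 (216 to 306) per kilobase. The ligand sums of chow epididymal libraries lay above all mesentery sums, the closest being 113 and 105. The Frizzled sums of the high fat epididymal libraries lay below those of both mesentery groups. Single genes made up much of these sums. Wnt6 gave 137 of the 303 in epididymal fat on chow. Fzd4 gave 342 of the 501 in mesentery on chow and 132 of the 258 in epididymal fat on high fat diet.

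**Figure D2:**
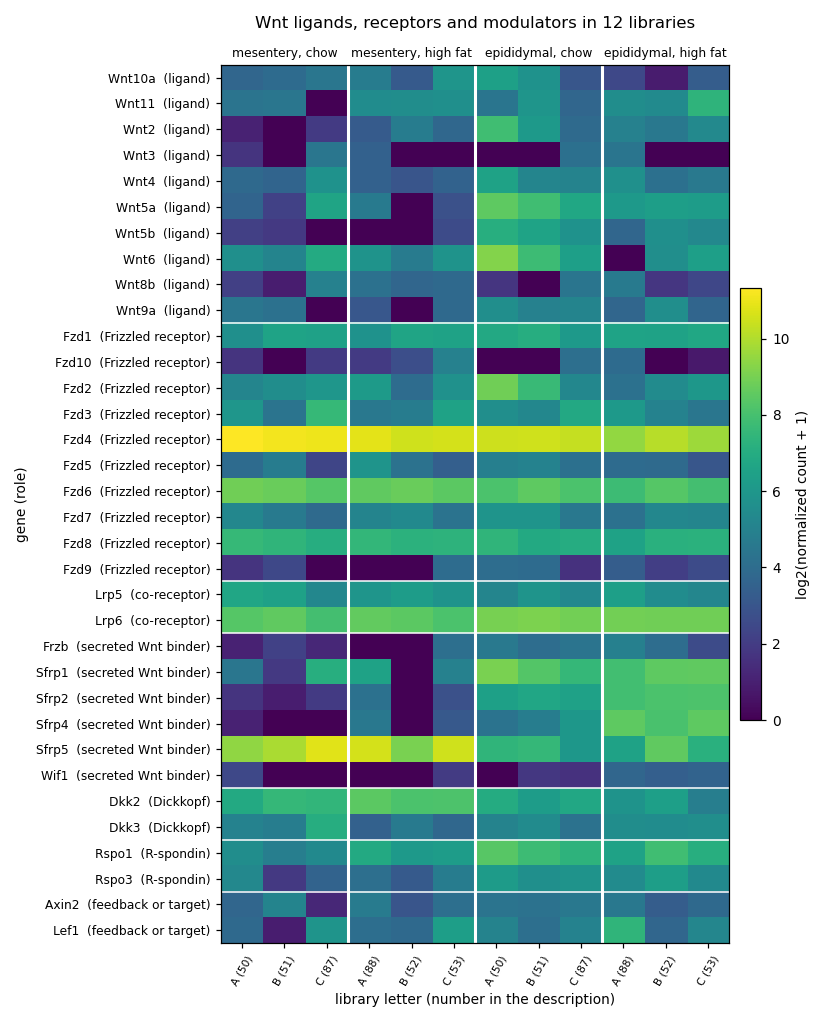
Level of each of the 34 genes as log2(normalized count + 1) in the 12 libraries, grouped by role (rows) and by tissue and diet (columns, with the description number of each library). Fzd4 was high in all 12 libraries, Sfrp5 stood out in mesentery, and Sfrp2 and Sfrp4 stood out in epididymal fat on high fat diet.

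Between the tissues on chow, 8 of the 30 tested genes passed the test (limma on log2(normalized count + 1), adjusted p under 0.05), beside 12.8% of all 22238 genes. Wnt2, Wnt5b, Lrp6, Sfrp2, Sfrp4 and Rspo1 were higher in epididymal fat (6 of 30, beside 7.32% of all genes higher), and Fzd4 and Sfrp5 were lower (2 of 30, beside 5.47% lower). With high fat feeding 6 of 30 passed, beside 8.34% of all genes: Wnt5b, Sfrp2 and Sfrp4 were higher (3, beside 4.91%) and Fzd4, Sfrp5 and Dkk2 were lower (3, beside 3.43%). Thus 5 genes passed on both diets, in the same direction. Without epididymal chow library A, 4 of the 30 passed on chow (Rspo1, Sfrp2, Sfrp4 and Sfrp5), and without epididymal high fat library C, 3 passed on high fat diet (Dkk2, Sfrp2 and Sfrp4). With columns rescaled to the same total the same 8 genes passed on chow, and Fzd6 joined the 6 as lower on high fat diet. That rescaling changed the split of all called genes from 1627 higher and 1216 lower to 1943 and 947 on chow, and from 1092 higher and 762 lower to 700 and 1280 on high fat diet. The median log2 change (epididymal over mesentery) of the 30 genes was 1.09 on chow, against -0.08 over all genes, and it was also 1.09 with genes against a group at the lower limit set to their smallest fold. In high fat libraries the medians were 0.39 and 0.06. The tissues did not overlap for 13 of the 30 genes on chow (28.7% of all genes) and 14 on high fat diet (26.4%).

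**Figure D3:**
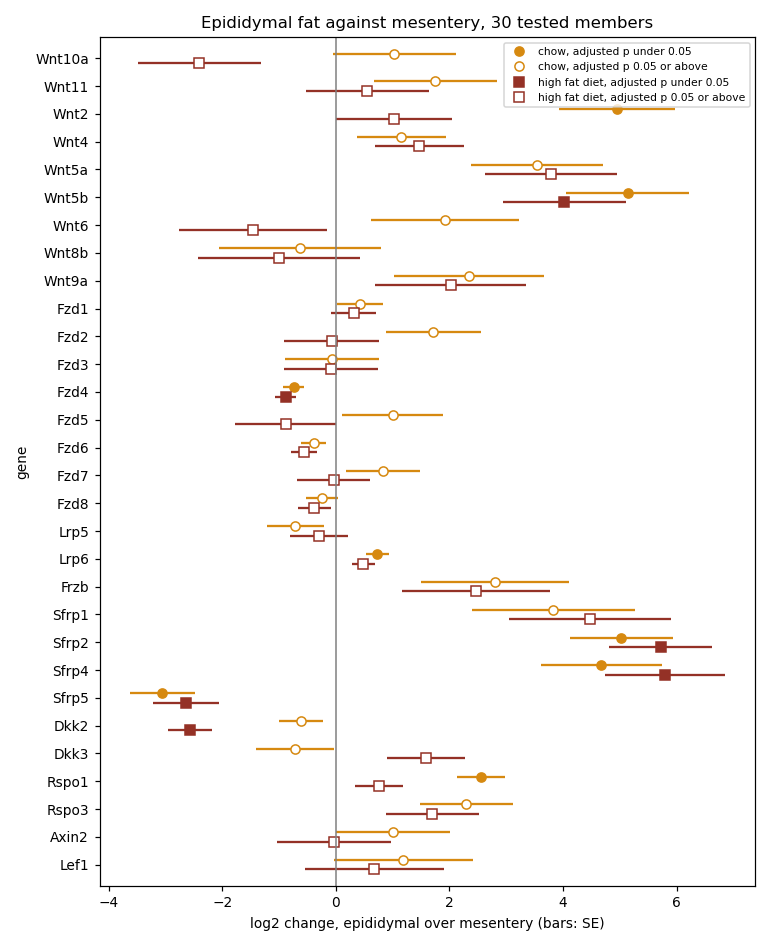
Log2 change of the 30 tested genes, epididymal fat over mesentery, on chow (circles) and high fat diet (squares). Bars are the standard error, and filled symbols passed an adjusted p under 0.05, which 8 genes did on chow and 6 on high fat diet.

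Among the ligands, Wnt5b passed between the tissues on both diets and Wnt2 on chow. Wnt2, a ligand of the beta-catenin branch, measured 1.14, 0 and 2.82 normalized counts in mesentery on chow (libraries A, B and C) and 227, 68.6 and 14.3 in epididymal fat on chow. All 3 mesentery chow libraries were at or under 3 reads, so the epididymal mean of 103 ± 111 (SD, n = 3) was at least 30.0-fold higher, or at least 12.0-fold without epididymal library A. The limma log2 change for Wnt2 on chow was 4.95 (SE 1.02, adjusted p = 0.00635), and without epididymal chow library A, the highest, the adjusted p was 0.0529. Under high fat feeding Wnt2 measured 8.42, 26.3 and 12.8 in mesentery and 30.4, 22.3 and 39.6 in epididymal fat. Those ranges overlapped, and the log2 change of 1.02 had an adjusted p of 0.694.

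Wnt5b, a ligand best known for signalling without beta-catenin and for a role in fat cell formation, was near 0 in mesentery. Its mesentery values were 3.42, 2.69 and 0 on chow and 0, 0 and 4.94 on high fat diet. In epididymal fat Wnt5b measured 136, 94.7 and 53.1 on chow and 12.4, 48.7 and 37.5 on high fat diet, above every mesentery library on both diets. The epididymal chow mean of 94.7 ± 41.6 was at least 27.5-fold higher than the mesentery chow group at its lower limit, with a log2 change of 5.14 (SE 1.09, adjusted p = 0.00749). For Wnt5b on high fat diet the log2 change was 4.02 (SE 1.09, adjusted p = 0.0376). Without epididymal chow library A, the chow call of Wnt5b was lost (0.0514). The high fat call was lost in 8 of 21 alternatives: in edgeR (adjusted p = 0.104), with the high fat groups alone (0.0994), and without epididymal high fat library B (0.146) or C (0.164), epididymal chow library A (0.0659) or B (0.0713), or mesentery high fat library A (0.105) or B (0.126).

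Wnt6 had the highest mean of any ligand, and its libraries were widely spread. It measured 49.0, 33.2 and 119.7 in mesentery on chow and 55.2, 24.9 and 56.3 on high fat diet. In epididymal fat Wnt6 measured 598, 219 and 82.7 on chow and 0, 47.9 and 82.1 on high fat diet. Tissue ranges overlapped on both diets, and the log2 changes of 1.91 on chow (SE 1.30, adjusted p = 0.409) and -1.45 on high fat diet (adjusted p = 0.641) did not pass. On high fat diet the Wnt6 means were close, at 45.5 in mesentery and 43.3 in epididymal fat, where library A was at 0. EdgeR and DESeq2 gave log2 changes of 0.02 and -0.06 for that contrast.

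Wnt5a, closely related to Wnt5b, was named after its values were seen. It measured 11.4, 3.58 and 97.1 in mesentery on chow against 361, 228 and 106 in epididymal fat, without overlap. With high fat feeding it measured 23.4, 0 and 5.93 in mesentery and 69.7, 81.8 and 75.0 in epididymal fat, again without overlap. The Wnt5a log2 changes were 3.55 and 3.79, with limma adjusted p of 0.0650 and 0.0654, so neither passed. The other ligands, Wnt3, Wnt4, Wnt8b, Wnt9a, Wnt10a and Wnt11, ranged from 0 to 163 normalized counts and none passed in either tissue contrast. Among these, Wnt3 and Wnt8b had their highest value of each group in the library numbered 87 or 88, up to 21.1 for Wnt3 and 31.0 for Wnt8b.

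Mesothelial, smooth muscle, fat cell, fibroblast and lymphatic markers differed between the tissues beside Wnt2, Wnt5b and Rspo1. On chow, mesothelial markers summed to 197 to 353 in mesentery and 1289 to 1919 in epididymal fat, where 5 of 7 tested were higher, and Wt1 was at 0 in all mesentery chow libraries. All 7 adipocyte markers were higher in epididymal fat on chow, with sums of 69490 to 92992 against 5139 to 8521 in mesentery. With high fat feeding, 1 of 7 adipocyte markers (sums of 6830 to 17886 against 5426 to 10812) and 2 of 7 mesothelial markers (443 to 851 against 266 to 325) were higher in epididymal fat. Smooth muscle and pericyte markers summed to 1489 to 1782 in mesentery on chow and 16800 to 27040 in epididymal fat, with 9 of 10 higher, and 5 of 10 were higher on high fat diet. Lymphatic endothelial markers summed to 997 to 1321 in mesentery and 2577 to 4322 in epididymal fat on chow, with 3 of 5 higher (Lyve1, Mmrn1 and Reln) and Flt4 lower. On high fat diet the lymphatic sums were 773 to 1383 and 1819 to 2305, with none higher and 1 lower. The part of these cells in the Wnt2, Wnt5b and Rspo1 values was not tested.

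Fzd4 had the highest level per kilobase of the Frizzled receptors (132 to 342 over the 4 group means, against 54.6 to 84.3 for Fzd6) and was lower in epididymal fat on both diets. It measured 2572, 2219 and 2108 normalized counts in mesentery on chow and 1396, 1438 and 1276 in epididymal fat. In high fat libraries the values were 1859, 1441 and 1548 in mesentery and 729.6, 1119.8 and 814 in epididymal fat. Every epididymal library was below every mesentery library of the same diet. The chow mean of Fzd4 was 1.68-fold higher in mesentery (2299.8 ± 243 against 1369.7 ± 84.2, SD, n = 3), a log2 change of -0.74 (SE 0.185, adjusted p = 0.0178). Under high fat feeding it was 1.82-fold higher in mesentery (1616 ± 217 against 888 ± 205), with -0.88 (SE 0.185, adjusted p = 0.0108). Neither Fzd4 call held in edgeR (adjusted p = 0.0869 on chow and 0.0710 on high fat diet), and the chow call was also lost without any 1 of the 3 epididymal chow libraries (0.0515 to 0.0562) and without mesentery chow library A (0.0857). The high fat call was lost without high fat epididymal library C (0.0589) and with libraries numbered 50 to 53 alone (0.0582).

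Most of the pan-endothelial markers moved the same way as Fzd4. Of these 10 genes, 6 passed as lower in epididymal fat on chow and 7 on high fat diet, and none passed as higher. On chow, Cdh5 (log2 change 0.02), Erg (0.13) and Esam (0.13) were near 0 and did not pass. Their median log2 change was -0.96 on chow and -1.20 on high fat diet, beside -0.74 and -0.88 for Fzd4, and the part of the endothelial share in the Fzd4 difference was not tested.

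None of the other 7 tested Frizzled genes passed in either tissue contrast. Fzd6 measured 319.6 to 466 in mesentery on chow, 355 to 425 in mesentery on high fat diet, 275 to 370.1 in epididymal fat on chow and 219 to 324 in epididymal fat on high fat diet. Fzd8 lay between 89.9 and 191 in all 12 libraries, and Fzd1 between 49.0 and 132. Fzd2 reached 464 and 203 in epididymal chow libraries A and B and stayed at 15.2 to 71.1 in the other 10 libraries. Fzd3 ranged from 19.7 to 190.1, and Fzd5 and Fzd7 from 4.22 to 57.3. Fzd9 and Fzd10, not tested, reached at most 15.7 and 30.6.

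Of the co-receptors, Lrp6 was higher in epididymal fat and Lrp5 did not pass in either contrast. Lrp6 measured 326, 374 and 248 in mesentery on chow and 509.8, 553 and 487 in epididymal fat, without overlap. The means of 316 ± 63.5 and 517 ± 33.7 differed 1.64-fold, with a log2 change of 0.73 (SE 0.201, adjusted p = 0.0299). That call held in 13 of 21 alternatives, edgeR gave 0.0579, the chow groups alone 0.0754 and libraries numbered 50 to 53 alone 0.0609, and leaving out any 1 of the 3 epididymal chow libraries or mesentery chow library A or C gave 0.0504 to 0.121. With high fat feeding Lrp6 measured 392, 352 and 279.6 in mesentery and 487, 467 and 461 in epididymal fat, again without overlap, and its log2 change of 0.48 had an adjusted p of 0.182. Lrp5 measured 102, 88.7 and 36.6 in mesentery on chow and 34.5, 56.5 and 37.8 in epididymal fat. On high fat diet the Lrp5 values were 59.9, 74.8 and 55.3 against 83.2, 44.6 and 35.4. Its ranges overlapped on both diets, with log2 changes of -0.71 (SE 0.506, adjusted p = 0.430) and -0.30 (adjusted p = 0.851). Per kilobase of exon, Lrp6 averaged 23.1 to 37.8 and Lrp5 4.41 to 7.80 over the 4 groups.

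Of the 6 secreted Wnt binders, 3 passed on both diets, in unlike directions: Sfrp2 and Sfrp4 were higher in epididymal fat and Sfrp5 in mesentery. Sfrp2 measured 2.28, 0.896 and 2.82 in mesentery on chow and 85.4, 104 and 88.8 in epididymal fat. In high fat libraries it measured 17.8, 0 and 5.93 in mesentery and 236, 274 and 290.2 in epididymal fat. The mesentery chow libraries of Sfrp2 were all at or under 3 reads, and the epididymal chow mean of 92.8 ± 10.1 was at least 27.0-fold higher. Log2 changes were 5.02 on chow (SE 0.907, adjusted p = 0.00276) and 5.72 on high fat diet (SE 0.907, adjusted p = 0.00183). Both Sfrp2 calls held in 21 of 21 alternatives.

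Sfrp4 measured 1.14, 0 and 0 in mesentery on chow and 18.8, 26.9 and 63.3 in epididymal fat, so that its mean of 36.3 ± 23.7 there was at least 10.6-fold higher, or at least 6.64-fold without epididymal library C. Under high fat feeding it measured 22.4, 0 and 7.90 in mesentery and 363, 269 and 365 in epididymal fat. The Sfrp4 log2 changes were 4.67 (SE 1.06, adjusted p = 0.0113) and 5.80 (SE 1.06, adjusted p = 0.00455). On chow the call was lost when the fit used the 2 chow groups alone (0.0518), and on high fat diet it held in 21 of 21 alternatives.

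Sfrp1 and Frzb also had higher means in epididymal fat on both diets, without passing. Sfrp1 measured 20.5, 2.69 and 137 in mesentery on chow against 524, 318 and 187 in epididymal fat, and 92.6, 0 and 30.6 against 235, 362 and 380.1 on high fat diet. These groups did not overlap on either diet, and the Sfrp1 log2 changes of 3.83 and 4.48 had adjusted p of 0.104 and 0.0757. Frzb measured 1.14, 3.58 and 1.41 in mesentery on chow and 22.7, 15.6 and 19.4 in epididymal fat, without overlap. On high fat diet the Frzb values were 0, 0 and 16.8 against 29.2, 15.7 and 4.95, with overlap. Its limma log2 changes of 2.80 and 2.47 had adjusted p of 0.197 and 0.316.

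The fibroblast markers were higher in epididymal fat beside Sfrp2 and Sfrp4: 8 of 10 passed on chow and 10 of 10 on high fat diet, with median log2 changes of 2.28 and 3.77. The part of fibroblast RNA in the Sfrp2 and Sfrp4 differences was not tested. High fat mesentery library B was at 0 for Sfrp1, Sfrp2, Sfrp4, Frzb and Wnt5a.

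Sfrp5, which is made by fat cells and is known to bind Wnt5a, measured 691, 937 and 1801 in mesentery on chow and 168, 184 and 63.3 in epididymal fat. With high fat feeding the values were 1538, 536 and 1456 in mesentery and 89.9, 377 and 143 in epididymal fat. Every mesentery library lay above every epididymal one of the same diet. The mesentery mean of Sfrp5 was 8.25-fold higher on chow (1143 ± 583 against 139 ± 65.7) and 5.79-fold higher on high fat diet (1177 ± 556 against 203 ± 153), or 10.1-fold without epididymal library B. Its log2 changes, epididymal over mesentery, were -3.06 (SE 0.576, adjusted p = 0.00361) and -2.64 (SE 0.576, adjusted p = 0.0134). The chow call held in 21 of 21 alternatives, and the high fat call was lost without high fat epididymal library C (0.0667) and without high fat mesentery library A (0.0596).

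Pancreatic acinar markers were in mesentery beside Sfrp5: all 8 were lower in epididymal fat on both diets, with median log2 changes of -11.15 and -10.67. Within mesentery on chow the acinar sums were 172793, 143225 and 24848 (libraries A, B and C), where Sfrp5 was 691, 937 and 1801. In mesentery on high fat diet they were 105654, 90929 and 53895, where Sfrp5 was 1538, 536 and 1456. Adipocyte markers went the other way from Sfrp5 on chow, with sums of 5139 to 8521 in mesentery and 69490 to 92992 in epididymal fat. On high fat diet the adipocyte sums overlapped, at 5426 to 10812 and 6830 to 17886. The part of pancreatic or fat cell RNA in the Sfrp5 difference was not tested. Wif1, which was not tested for its low level, measured 12.4, 9.91 and 11.3 in epididymal fat on high fat diet and at most 4.55 in the other 9 libraries.

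Dkk2, a Dickkopf protein that binds the co-receptors, was lower in epididymal fat under high fat feeding. It measured 356, 279 and 285 in mesentery and 55.1, 83.4 and 27.6 in epididymal fat, means of 306 ± 43.3 and 55.4 ± 27.9, or 5.54-fold higher in mesentery. The log2 change was -2.57 (SE 0.389, adjusted p = 0.00125), and the call held in 21 of 21 alternatives. In the same contrast 7 of 10 pan-endothelial markers (median log2 change -1.20) and all 8 acinar markers (median -10.67) were lower in epididymal fat. Of the macrophage and leukocyte markers, 6 of 8 were higher there. The part of these cells in the Dkk2 difference was not tested. On chow Dkk2 measured 117, 188 and 173 in mesentery and 125, 76.5 and 111 in epididymal fat, where the ranges overlapped and the log2 change of -0.61 had an adjusted p of 0.375. Dkk3 ranged from 10.3 to 134 over all libraries and passed in neither tissue contrast.

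Rspo1, an R-spondin, was higher in epididymal fat on chow. It measured 46.7, 27.8 and 40.8 in mesentery and 336, 215 and 158 in epididymal fat, without overlap. The mean was 6.15-fold higher in epididymal fat (236 ± 90.8 against 38.4 ± 9.68), with a log2 change of 2.55 (SE 0.425, adjusted p = 0.00161) that passed in 21 of 21 alternatives. In high fat libraries Rspo1 measured 117, 66.5 and 76.1 in mesentery and 89.9, 232 and 138 in epididymal fat, with overlap and a log2 change of 0.75 (adjusted p = 0.359). Rspo3, the other R-spondin, ranged from 2.69 to 37.6 in mesentery and from 41.1 to 81.8 in epididymal fat, the 2 ranges not overlapping on either diet, and it did not pass.

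Axin2 and Lef1, commonly read as outputs of the beta-catenin branch, were low and did not pass in any contrast. Axin2 measured 12.5, 34.0 and 1.41 in mesentery on chow, 25.3, 6.93 and 16.8 in mesentery on high fat diet, 19.6, 18.2 and 22.5 in epididymal fat on chow and 22.5, 9.08 and 13.4 in epididymal fat on high fat diet. The 4 Axin2 ranges overlapped, and its tissue log2 changes were 1.01 (SE 1.01, adjusted p = 0.597) on chow and -0.04 (SE 1.01, adjusted p = 0.994) on high fat diet. Lef1 measured 13.7, 0.896 and 57.7 in mesentery on chow and 15.9, 13.9 and 81.0 on high fat diet. In epididymal fat Lef1 measured 32.9, 16.5 and 31.7 on chow and 169, 12.4 and 36.1 on high fat diet. In the other 3 groups 1 library stood well above its fellows, unlike in epididymal fat on chow, and the Lef1 tissue changes of 1.19 and 0.68 (SE 1.23 for both) had adjusted p of 0.612 and 0.864. With standard errors of this size, differences of less than several-fold in Axin2 or Lef1 were not detectable.

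**Figure D4:**
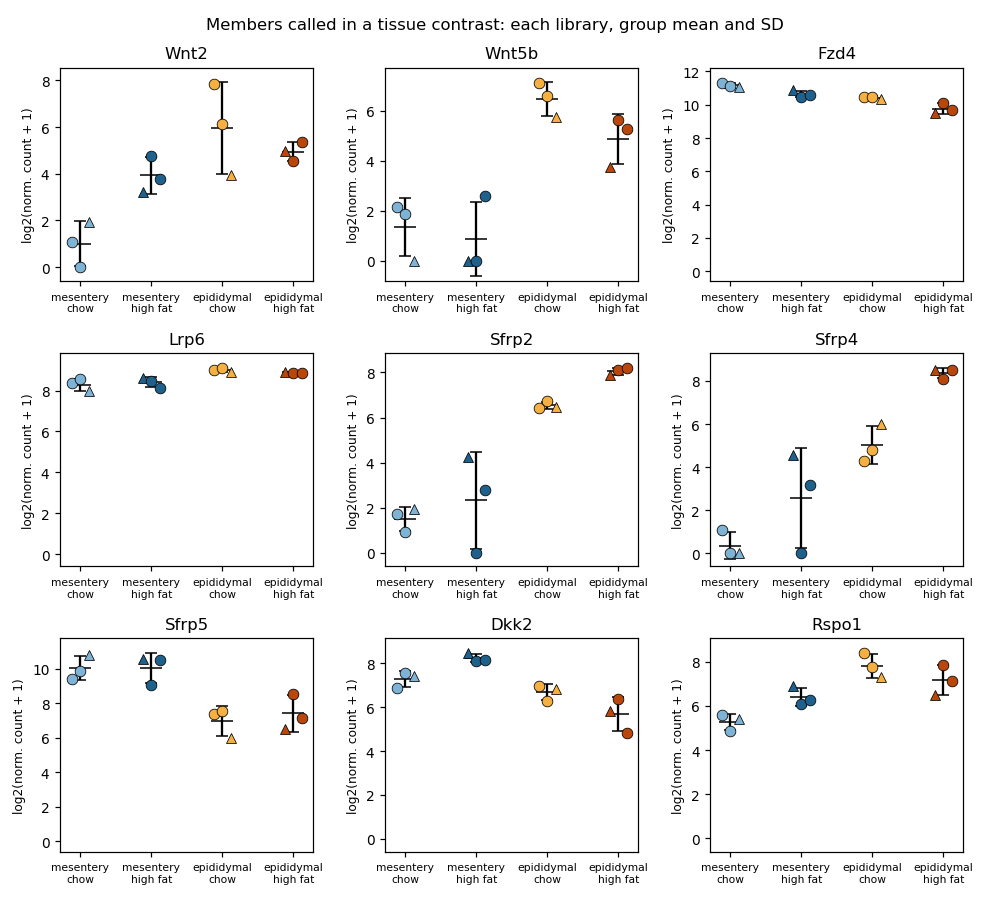
The 9 genes that passed in a tissue contrast, as log2(normalized count + 1) in each library, with the group mean and SD. Triangles are libraries numbered 87 or 88. Wnt5b, Sfrp2 and Sfrp4 lay higher in epididymal fat on both diets, Fzd4 and Sfrp5 lower, and the Dkk2 groups parted on high fat diet.

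Between the diets, none of the 30 genes passed in mesentery (beside 0.0135% of all genes) or in epididymal fat (beside 0.549%). Values of the 2 diets lay apart, without overlap, for 7 of the 30 in mesentery (9.61% of all genes) and 9 in epididymal fat (13.5%). At an unadjusted limma p under 0.05 there were 6 of 30 in mesentery (6.15% of all genes), namely Wnt2, Wnt11, Fzd4, Dkk2, Dkk3 and Rspo1, and 6 in epididymal fat (6.94%), namely Wnt6, Wnt10a, Fzd2, Fzd4, Sfrp4 and Dkk2. By edgeR no gene of the 30 passed in either tissue, and by DESeq2 none passed in mesentery and 2 passed in epididymal fat, Fzd4 and Sfrp4. The median log2 change, high fat over chow, was 0.04 in mesentery against 0.00 over all genes, and 0.07 with genes against a group at the lower limit set to their smallest fold. In epididymal fat it was -0.48 against 0.10, with 9 values above 0 and 21 below. All 8 tested Frizzled genes and 7 of 9 tested ligands were among the 21. Marker sums in epididymal fat also differed between chow and high fat diet. Adipocyte sums were 69490 to 92992 on chow and 6830 to 17886 on high fat diet. Mesothelial sums were 1289 to 1919 and 443 to 851, in the same order, and macrophage and leukocyte sums 5380 to 81233 and 128565 to 323808. The part of these cells in the ligand and Frizzled values was not tested. In epididymal fat, libraries in the same number range (50 to 53, or 87 and 88) deviated together from their group means across the diets (correlations of 0.436 to 0.838 over genes). Libraries of different ranges deviated oppositely (-0.675 to -0.625), which is not a separate result, because the deviations of a group sum to 0. With the range as a covariate, and with libraries 50 to 53 alone, no Wnt gene passed for diet in either tissue, and the range of 87 and 88 held 1 library a group. Rescaling the columns moved the median of all genes by 0.13 in mesentery and -0.14 in epididymal fat. It also changed the split of all called genes in epididymal fat from 93 higher and 29 lower to 67 and 38.

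**Figure D5:**
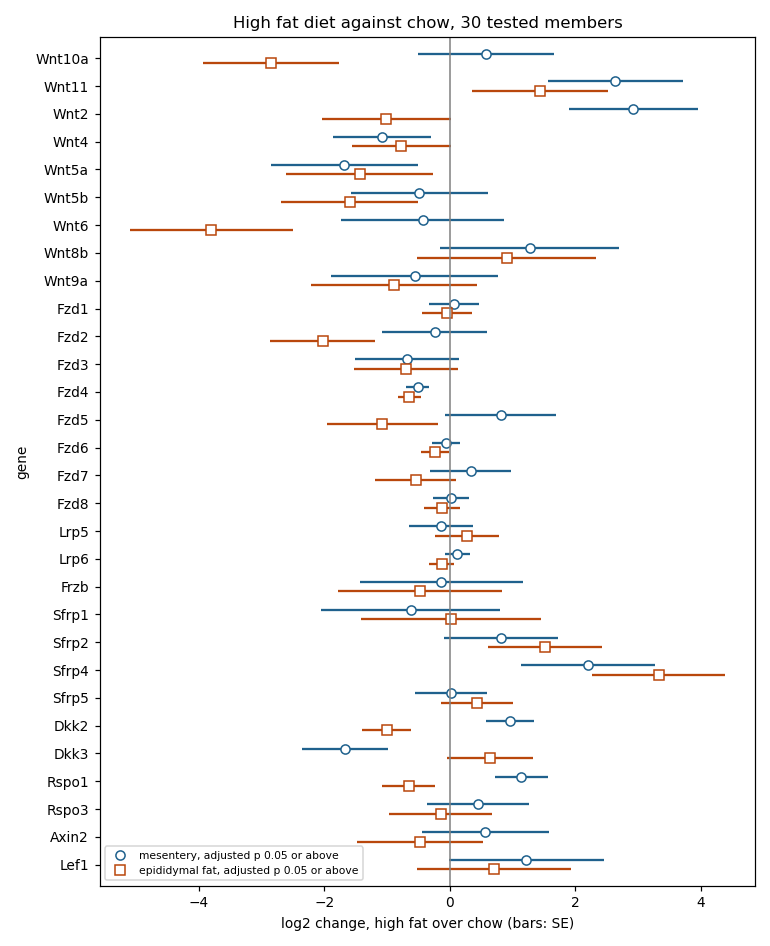
Log2 change of the 30 tested genes, high fat diet over chow, in mesentery (circles) and epididymal fat (squares). Bars are the standard error, and no symbol is filled because no gene passed an adjusted p under 0.05 in either tissue.

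Sfrp4, with the smallest unadjusted p among the higher values in epididymal fat, measured 18.8, 26.9 and 63.3 on chow against 363, 269 and 365 on high fat diet. The groups did not overlap and the mean was 9.14-fold higher on high fat diet (332 ± 54.6 against 36.3 ± 23.7), or 14.5-fold without chow library C. Its limma log2 change of 3.33 (SE 1.06, unadjusted p = 0.00782) had an adjusted p of 0.282. For Sfrp4 edgeR gave 0.286, DESeq2 0.00611 and limma on the epididymal groups alone 0.0215. Sfrp2 measured 85.4, 104 and 88.8 on chow and 236, 274 and 290.2 on high fat diet in epididymal fat, 2.87-fold higher in the mean and without overlap, and it passed when limma used the epididymal groups alone. Of the fibroblast markers, 3 of 10 were higher in epididymal fat under high fat feeding, with a median log2 change of 1.83, and their part in the Sfrp2 and Sfrp4 values was not tested.

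Fzd4 was at 1396, 1438 and 1276 in epididymal fat on chow and at 729.6, 1119.8 and 814 on high fat diet, without overlap. The log2 change was -0.65 (SE 0.185, unadjusted p = 0.00381, adjusted p = 0.200), and DESeq2 gave an adjusted p of 0.0271. In mesentery, too, every high fat value of Fzd4 (1441 to 1859) was below every chow value (2108 to 2572), with a log2 change of -0.51 (adjusted p = 0.670). The 10 pan-endothelial markers had median log2 changes of -0.63 in epididymal fat and -0.31 in mesentery, with none called.

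Wnt6 in epididymal fat averaged 300.0 ± 267 on chow and 43.3 ± 41.2 on high fat diet, 6.92-fold higher on chow, with a log2 change of -3.80 (SE 1.30, adjusted p = 0.353). That fold was 3.48 without chow library A, 4.62 without high fat library A, which was at 0, and 12.5 without high fat library C, and the log2 change ranged from -4.99 to -1.80 over the alternatives. Every high fat library of Wnt6 was below every chow library, the closest being 82.1 and 82.7. Wnt2 had the smallest unadjusted p in mesentery, with values from 1.14, 0 and 2.82 on chow to 8.42, 26.3 and 12.8 on high fat diet. This was at least 4.61-fold higher than the lower limit on chow, with a log2 change of 2.92 (SE 1.02, unadjusted p = 0.0133, adjusted p = 0.657). Wnt11, named after its values were seen, measured 19.4, 20.6 and 0 in mesentery on chow and 44.9, 45.7 and 48.4 on high fat diet, all above the chow libraries, and Wnt10a in epididymal fat ranged from 7.15 to 86.9 on chow and from 0.826 to 9.20 on high fat diet, with overlap. Lrp5, Lrp6, Axin2 and Lef1 had diet changes between -0.48 and 1.22 on the log2 scale, with adjusted p of at least 0.952.

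For the dependence of the diet difference on the tissue, none of the 30 genes passed (beside 0.0045% of all genes), and 5 had an unadjusted p under 0.05 (4.71% of all genes): Wnt2, Wnt10a, Dkk2, Dkk3 and Rspo1. By edgeR and by DESeq2 the count was 0 as well. Dkk2 had the smallest unadjusted p (0.00335) of the 5. Its values went from 117, 188 and 173 on chow to 356, 279 and 285 on high fat diet in mesentery, and from 125, 76.5 and 111 to 55.1, 83.4 and 27.6 in epididymal fat. The Dkk2 diet changes were 0.96 in mesentery and -1.01 in epididymal fat, and their difference of -1.96 (SE 0.550) had an adjusted p of 0.536. Rspo1 likewise had a change of 1.14 in mesentery and a lower mean on high fat diet in epididymal fat (153 ± 72.3 against 236 ± 90.8), with a difference of -1.80 (SE 0.601, adjusted p = 0.748). The Wnt2 difference was -3.93 (SE 1.45, adjusted p = 0.878). Thus Dkk2 passed between tissues on high fat diet and Rspo1 and Wnt2 on chow, and the interaction passed for none of these 3 genes.

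Other genes of the pathway were read from 7 lists holding 69 genes, of which 67 were listed and 65 tested. None passed in either diet contrast or in the interaction (at an unadjusted limma p under 0.05 there were 4, 7 and 5, beside 6.15%, 6.94% and 4.71% of all genes). Between tissues on chow, 10 were higher in epididymal fat and 7 lower, and on high fat diet 0 were higher and 7 lower. In all, 26.2% of the 65 passed on chow, beside 12.8% of all genes, and 10.8% on high fat diet, beside 8.34%. Their median log2 changes were 0.02 and -0.19, against -0.08 and 0.06 over all genes.

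Higher in epididymal fat on chow were Trabd2b, a membrane protease that inactivates Wnt ligands (log2 change 3.40, adjusted p = 0.000586), Daam2, a formin acting below Dishevelled (2.99, adjusted p = 0.000892), and Nkd1, an inducible antagonist and beta-catenin target (2.78, adjusted p = 0.00330). Trabd2b averaged 12.2 ± 3.96 in mesentery and 137.7 ± 37.6 in epididymal fat on chow. Of the 7 tested genes in the list of widely used beta-catenin targets, 2 were higher on chow (Nkd1 and Myc) and none on high fat diet. Neither of the 2 Wnt secretion genes, Porcn and Wls, passed on either diet.

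Prickle1 and Prickle2, of the planar cell polarity branch, were lower in epididymal fat on both diets. Prickle1 averaged 822 ± 142 and 789 ± 88.9 in mesentery on chow and high fat diet and 256 ± 72.6 and 179 ± 48.3 in epididymal fat, with log2 changes of -1.70 (adjusted p = 0.000717) and -2.16 (adjusted p = 0.000164). Prickle2 averaged 804 ± 425 and 707 ± 258 in mesentery and 147 ± 9.50 and 152 ± 27.9 in epididymal fat, with changes of -2.27 (adjusted p = 0.00179) and -2.16 (adjusted p = 0.00383). In all, 1 gene of the 10 tested in that list was higher and 2 were lower on chow, and 3 were lower on high fat diet, the third being Vangl1. The co-repressor gene Tle3 was lower on chow (-1.17, adjusted p = 0.0303) and Kremen2, a Dickkopf receptor, on high fat diet (-1.98, adjusted p = 0.0141). Tspan12, which pairs with Fzd4 in norrin signalling, was chosen after its values were seen. It averaged 3647 ± 490 and 3820 ± 852 in mesentery and 1929 ± 160 and 1402 ± 566 in epididymal fat. Tspan12 was lower there on chow (-0.91, adjusted p = 0.0388) and on high fat diet (-1.51, adjusted p = 0.00365). The pan-endothelial markers had medians of -0.96 and -1.20. The part of endothelial or other cells in the differences of these pathway genes was not tested.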

How the data were processed

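The deposited table gives 1 normalized count signal per gene and library; the authors' tools, per the submitters' processing notes, were STAR 2.7.9a, featureCounts of Subread and DESeq2 1.34.0, with build mm39, and no role or order is given there. Each deposited value was a whole multiple of the library's step (100% of values within 0.01 reads), so reads were recovered and used for library totals and for edgeR and DESeq2. The lowest total of a listed gene was 51 reads, so rarer genes are not in the table.

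Values were tested as log2(normalized count + 1), with limma 3.58.1 in R 4.3.3 (trend, a mean per group over all 12 libraries, Benjamini-Hochberg over the 22238 genes with a mean of at least 10, threshold 0.05). On that scale the change of a gene low in a whole group is understated, and 1 library at 0 can make a change larger than the ratio of means. With 3 libraries against 3, an exact permutation test of a single gene cannot go below p = 0.1. Contrasts of the 2 diets share their control libraries with the tissue contrasts. Alternatives were a pseudocount of 5, no filter, columns rescaled to the same total, edgeR 4.0.16, DESeq2 1.42.0, the groups of a contrast alone, a replicate block, the number range as a covariate, the libraries numbered 50 to 53 alone, and leaving out each library. Scripts were tested on simulated data. Exon lengths were merged exons of GENCODE vM21. A fold against a group whose 3 libraries were at or under 3 reads used the mean of 3 reads over that group, 3.44 normalized counts for mesentery on chow, and covers counting error only.

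The genes and the pathway and marker lists were chosen with earlier results of these data known. Values in every library are given for genes that passed in any contrast, the gene with the highest mean of each role, the gene with the smallest unadjusted p each way in each diet contrast, and Lrp5, Lrp6, Axin2 and Lef1. From the pathway lists, the 3 largest passing changes each way are named for each tissue contrast, among genes whose higher group averaged 100 or more.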

Additional observations from a re-analysis of the deposited data

Results flagged for a closer look

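Dkk3, a secreted protein of the Dickkopf family, had diet changes of opposite sign in the 2 tissues, without overlap of the diet groups, and neither change passed. In mesentery it measured 31.9, 26.9 and 134 normalized counts on chow (libraries A, B and C) and 10.3, 23.6 and 12.8 on high fat diet. In epididymal fat it measured 32.1, 42.6 and 18.4 on chow and 46.1, 44.6 and 47.4 on high fat diet. The difference between the diet changes was 2.30 on the log2 scale (SE 0.970), from 1.02 to 2.72 over the alternatives. Its unadjusted limma p was 0.0335 and its adjusted p 0.991, so it did not pass.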

How the results depend on the processing

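Counts of passing genes moved with the tool and with the libraries used, and the cause was not tested. For diet in mesentery, 3 of all genes passed, against 1 by edgeR, 150 by DESeq2, 1 with the groups of the contrast alone and 20 with libraries 50 to 53 alone, and 1 (without high fat mesentery C) to 37 (without chow mesentery C) with 1 library left out. For diet in epididymal fat, 122 passed, against 29, 563 and 31 by edgeR, by DESeq2 and in libraries 50 to 53, and 23 (without high fat epididymal C) to 176 (without chow mesentery C). For tissue on chow, 2843 passed, against 4349 in libraries 50 to 53, and 1516 (without chow epididymal B) to 3278 (without chow mesentery C). For tissue on high fat diet, 1854 passed, against 1021 by edgeR and 2931 by DESeq2, and 728 (without high fat epididymal C) to 2508 (without chow mesentery C). For the interaction, 1 passed, against 130 by DESeq2 and 11 in libraries 50 to 53, and 1 to 20 (without chow mesentery C).

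Of the Wnt genes, 2 passed for diet in epididymal fat by DESeq2 (Fzd4 and Sfrp4) and 2 with the epididymal groups alone (Sfrp2 and Sfrp4), against 0. For tissue on chow, 8 passed, and 4 (without chow epididymal A) to 10 (without high fat mesentery B) with 1 library left out. For tissue on high fat diet, 6 passed, and 3 (without high fat epididymal C) to 8 (without chow mesentery C). No alternative reversed the sign of any of the 14 Wnt gene changes that passed. Over all 150 fitted changes (30 genes in 5 contrasts), 58 had alternatives on both sides of 0, among them Wnt6 between tissues on high fat diet (-1.45, alternatives from -2.64 to 0.73) and, on chow, Axin2 (1.01, from -0.13 to 1.88) and Lef1 (1.19, from -0.13 to 2.35).

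Whether the letters or numbers pair the libraries was checked by the correlation of deviations from group means. For letters across diets it averaged 0.00 in mesentery and -0.30 in epididymal fat. For the same number across tissues it averaged 0.38 on chow (0.03 to 0.58). The average of -0.18 for different numbers is not a separate result, because the deviations of a group sum to 0. Of different numbers in the same range, mesentery B with epididymal A gave 0.52 and mesentery A with epididymal B -0.03. On high fat diet the averages for the same and for different numbers were -0.04 and 0.02. Not every same-numbered pair deviated together. With 3 libraries a group, this check cannot tell whether same-numbered libraries came from the same mice, and the main fit did not pair them. With the replicate block, 5 of all genes passed for diet in mesentery, 36 for diet in epididymal fat and 2 for the interaction, and the Wnt counts stayed at 0, 0, 8, 6 and 0.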
